A study of Mus musculus with 24 samples.

Results

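The genes described here are 9 components of the mouse Notch pathway: the receptors Notch1, Notch2 and Notch3, the ligands Dll1, Dll3 and Jag1, and the transcriptional repressors Hes1, Hes5 and Hey1. They were chosen by symbol, and all 9 were found in both expression tables, among 17501 genes of mouse embryonic stem cells (mESC) and 16024 genes of neural progenitor cells (NPC). Expression was measured by RNA sequencing in 24 libraries, 2 for each of 6 Htt genotypes in each cell type. Htt (the Hdh locus) encodes huntingtin, whose CAG repeat is expanded in Huntington's disease. Cells were either wild type (WT), without Htt (knockout, KO), or heterozygous for an Hdh allele into which a CAG tract had been knocked in: 20 repeats in Q20, 50 in Q50, 92 in Q92 and 111 in Q111. For Q92 the sample titles state 92 repeats, but the culture description and table headers state 89. The mESC were kept with leukemia inhibitory factor on irradiated mouse embryonic fibroblast feeders. The NPC were derived from mESC as an adherent monolayer in N2B27 medium and were then expanded on laminin with FGF and EGF. Each knock-in allele was carried by its own mESC line or lines, whose number the labels do not give, so repeat length and line cannot be told apart. They do not say from which cells the WT and KO cultures came or how the KO was made.

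In the Notch pathway, a transmembrane ligand of the Delta-like or Jagged family on one cell engages a Notch receptor on its neighbour. Cleavage by ADAM proteases and then by gamma-secretase releases the receptor's intracellular domain, which joins the DNA-binding protein RBPJ and Mastermind coactivators to switch on repressor genes of the Hes and Hey families. In the developing brain these repressors hold down proneural factors and keep progenitors undifferentiated, while proneural factors raise Delta-like ligands in cells that begin to become neurons. Dll3 is an atypical member of the Delta-like family that resides mainly inside the cell and inhibits Notch activation in the same cell.

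Promoter sequences of the RefSeq set on GRCm38.p6 were found for 7 of the 9 genes and not used for Hes1 and Hey1. In the 250 bases before each start, the core letters of the RBPJ site, TGGGAA on either strand, occurred in Hes5 and in no other of the 7 genes, against 21.6% of 32851 windows of this length. Hes5 held 2 matches, whose first letters lay 226 bases (minus strand) and 82 bases (plus strand) before the start, and both remained with the longer form GTGGGAA, which 5.42% of windows held. The window is shown because Hes5 had the widest range of the 9 genes in NPC, with the RBPJ core in capitals (chr4:154960673-154960922, GRCm38.p6, plus strand).
Hes5: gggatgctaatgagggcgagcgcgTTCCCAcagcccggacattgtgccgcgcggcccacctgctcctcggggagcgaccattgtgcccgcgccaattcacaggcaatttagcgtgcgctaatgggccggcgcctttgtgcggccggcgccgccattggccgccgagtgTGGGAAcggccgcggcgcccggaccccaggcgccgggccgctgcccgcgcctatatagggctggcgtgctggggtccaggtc
The E-box CANNTG, the site class of proneural factors, occurred in 4 of the 7 genes (Dll1, Dll3, Jag1 and Hes5), against 66.2% of windows. Its form CAGCTG, a subset of the same matches, occurred in Dll1, Dll3 and Jag1, the 3 ligands, and in none of the other 4 genes, against 13% of windows. In Dll1, which has 2 windows, the match lay in the second. The bases after the start of that window were not found in a GENCODE transcript of the gene. The shares are per window, so Dll1 had 2 windows in which to match. The N-box CACNAG, a site class of Hes repressors, occurred in 3 of the 7 genes (Notch1, Notch2 and Notch3), against 36.7% of windows, so this count does not set the genes apart. The bases after the start of the Notch3 window were not found in a GENCODE transcript of the gene either. The Dll3 window is shown because Dll3 was called in more comparisons than any other of the 9 genes, with E-boxes in capitals (chr7:28301786-28302035, GRCm38.p6, minus strand).
Dll3: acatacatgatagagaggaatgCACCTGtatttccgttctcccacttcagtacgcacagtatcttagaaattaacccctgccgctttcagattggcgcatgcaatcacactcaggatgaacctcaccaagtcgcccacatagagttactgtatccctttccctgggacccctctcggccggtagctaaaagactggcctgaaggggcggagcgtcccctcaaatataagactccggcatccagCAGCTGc
Its E-boxes began 228 and 7 bases before the start, and the second has the CAGCTG form. A match describes letters in a window and does not show binding.

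The libraries held 58546211 to 81502284 recovered reads in mESC and 48525333 to 118038952 in NPC. Each value given below is a scaled read count in the deposited unit, named CPM by the authors, and each cell type was scaled in a table of its own, so levels were not tested between cell types. Htt, the targeted gene, was 94.9 to 100 CPM in the NPC libraries labelled KO and 137 to 177 CPM in WT. In mESC the library labelled KO 1 had 139 CPM of Htt, above both WT libraries, and the library labelled KO 2 had 68.5 CPM, so every mESC direction for KO rests on the label of KO 1. Markers of neural progenitors were present in all 12 NPC libraries, with a summed level of their 8 genes from 3972 CPM in the library Q20 1 to 9372 CPM in Q50 2. The Q20 libraries of NPC stood apart from the others in single markers. The pluripotency factors Pou5f1 (90.1 and 87.4 CPM) and Nanog (13.0 and 13.7 CPM) were at most 0.405 and 1.63 CPM in the other 10 libraries, whereas Klf4 (3.19 and 3.83 CPM) and Esrrb (0.721 and 0.751 CPM) of the same list were within or below the range of the other libraries (2.19 to 18.5 and 0.723 to 7.74 CPM). The neuronal genes Stmn2 (103 and 128 CPM) and Dcx (38.6 and 52.2 CPM) were at most 5.51 and 9.03 CPM elsewhere, whereas Map2 was lowest in Q20 (599 and 646 CPM, against 714 to 1593 CPM), and the sum of the 7 neuron markers, 784 and 963 CPM, lay within the range of the other libraries (737 to 1634 CPM). Summed astrocyte markers (6 genes) were 2302 and 2031 CPM in Q20, 1461 and 1165 CPM in Q50, 346 and 350 CPM in Q92 and 284 and 274 CPM in Q111. Aldh1l1 of that list had another order, with 235 and 215 CPM in Q20, 23.7 and 30.4 CPM in Q50, 3.75 and 4.10 CPM in Q92 and 137 and 131 CPM in Q111. Summed fibroblast markers (8 genes) reached 895 and 917 CPM in Q50 and 311 and 252 CPM in Q20, against 38.0 CPM or less elsewhere. The oligodendrocyte lineage sum (6 genes) was 26.8 and 25.6 CPM in Q92, 314 and 339 CPM in Q20 and at least 128 CPM in every other library. Of that list Pdgfra was 1.27 and 2.20 CPM in Q92 and 162 and 203 CPM in Q20. Cspg4 went the other way, with 20.8 and 19.5 CPM in Q92 and 5.17 and 4.26 CPM in Q20. Endothelial and microglial sums stayed under 4.65 and 0.565 CPM. The part of these markers in the results below was not tested, and many of the results against Q20 are therefore also given against WT.

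**Figure D1:**
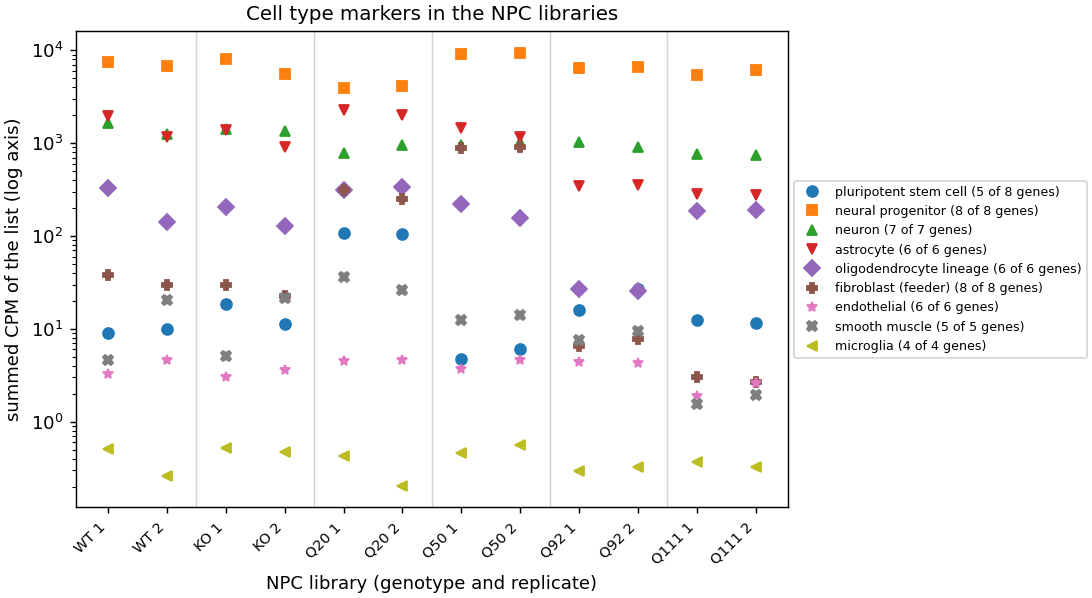
Summed CPM of each marker list (vertical log axis) in the 12 NPC libraries (horizontal axis, genotype and replicate); each symbol is the sum over one list in one library. Neural progenitor markers led in every library, pluripotency markers were at 106 to 108 CPM in Q20 and 26.5 CPM or less elsewhere, and astrocyte markers were lowest in Q92 and Q111.

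Over the 4 knock-in lines of NPC, 5 of the 9 genes fell with repeat length (Dll3, Hey1, Notch3, Dll1 and Hes5) and none rose, whereas 22% of all 13206 tested genes were called for this trend, 10.1% as falling. Hes5, a direct Notch target, was 37.7 times higher in the mean of Q20 than in that of Q92, and Dll3 10.4 times higher in Q20 than in Q111. The receptors Notch1 and Notch2 and the repressor Hes1 were not called in any NPC comparison on the values as deposited with all 12 libraries in the fit. In mESC none of the 8 genes that could be tested was called without the replicate block. A gene was called where limma's moderated test on log2(CPM + 1) gave an adjusted p under 0.05 over all tested genes. Differences are on that log2 scale, which understates changes of low genes. In such bulk libraries, fewer cells that express a gene and less RNA per cell cannot be told apart.

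**Figure D2:**
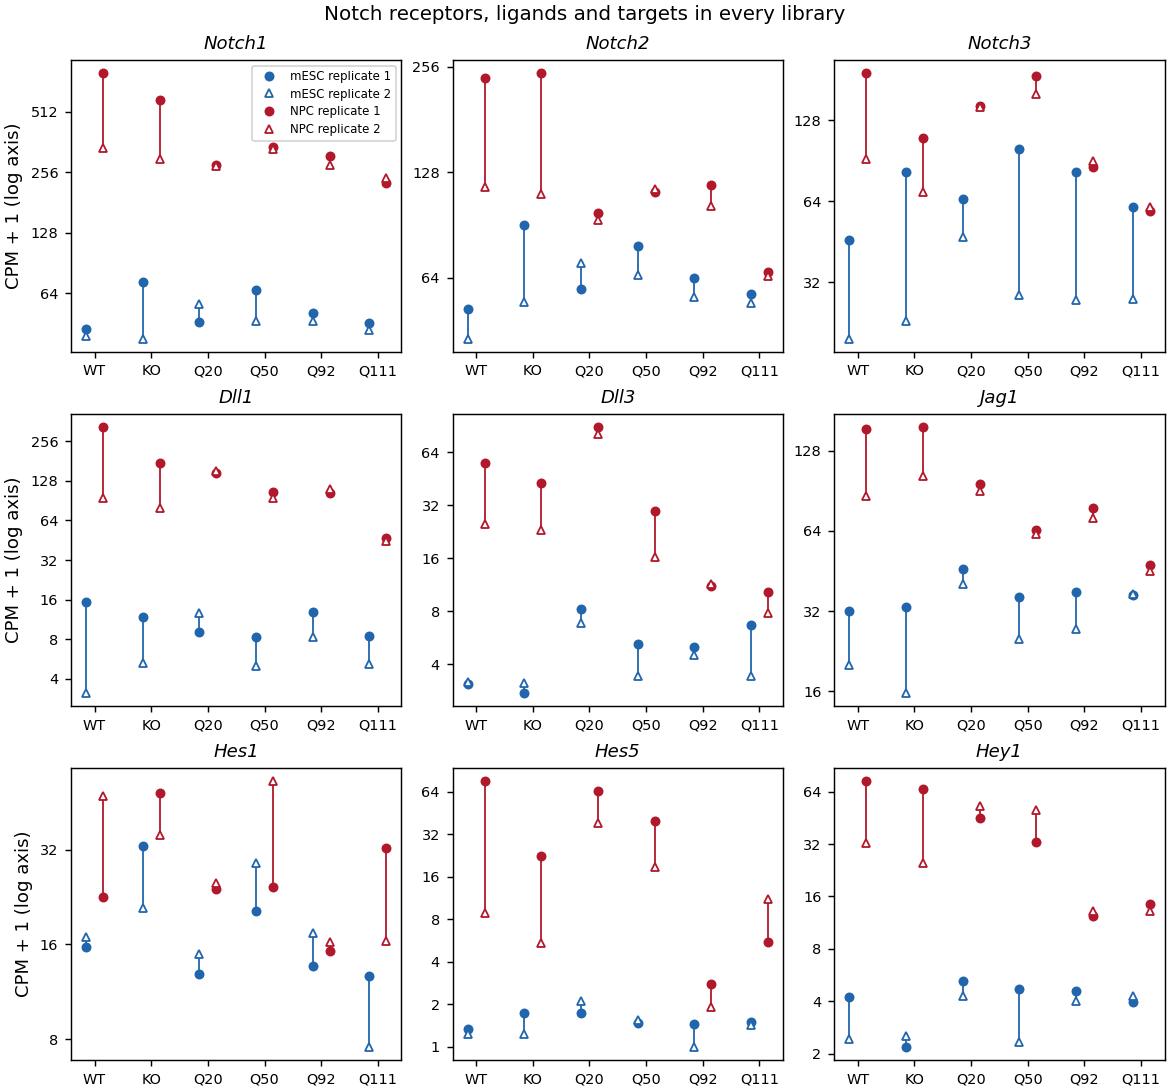
CPM + 1 on a log2-spaced axis against Htt genotype for each gene, with filled circles for replicate 1, open triangles for replicate 2, and a line joining both; red is NPC and blue is mESC, whose tables were scaled separately. In NPC the group means of Dll3, Hes5 and Hey1 are lowest in Q92 and Q111, though for Hes5 the KO and Q111 libraries overlap. The 2 WT libraries lie far apart for most genes.

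Levels differed between the genes, and are compared here per kilobase of exonic length. In NPC the median over 12 libraries was highest for Dll1 (24.4 CPM per kb) and Notch1 (21.3 CPM per kb). Jag1 (13.9), Notch3 (12.4), Hes1 (11.7), Notch2 (10.3), Hes5 (10.2), Hey1 (9.70) and Dll3 (8.07 CPM per kb) followed. In mESC the median was highest for Hes1 (7.50 CPM per kb), and Jag1, Notch3, Notch2 and Notch1 lay between 3.18 and 5.78 CPM per kb. Dll1 (1.75), Dll3 (1.04), Hey1 (0.961) and Hes5 (0.333 CPM per kb) were the lowest in mESC. These medians pool genotypes, and the leading gene changed with genotype. By group mean per kb, Dll1 was the highest of the 9 in NPC of WT and Q92, Notch1 in KO, Q50 and Q111, and Hes5 in Q20. In mESC Hes1 was the highest in WT, KO, Q50 and Q92 and Jag1 in Q20 and Q111.

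The WT and KO cultures of NPC varied more between replicates than the knock-in lines did. All 9 genes differed at least 1.803-fold between the 2 WT libraries, 8 of them higher in replicate 1 (the exception was Hes1), and by up to 9.45-fold for Hes5. In KO all 9 were higher in replicate 1, by 1.37- to 4.88-fold. In Q20 the ratio of the higher to the lower library ran from 1.01 to 1.72 and in Q92 from 1.03 to 1.92. The same ratio ran from 1.02 to 2.22 in Q50 and from 1.03 to 2.25 in Q111. A comparison with WT therefore rests on 2 libraries that disagree on the level of most of these genes.

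Notch1 (chromosome 2, 26457903 to 26516663 on the minus strand of GRCm38, as are all gene positions here) is the main receptor of neural stem cells. In NPC it was 793 and 337 CPM in WT, 585 and 297 CPM in KO, 277 and 275 CPM in Q20, 341 and 334 CPM in Q50, 309 and 278 CPM in Q92, and 225 and 238 CPM in Q111. The Q111 libraries were the lowest of all 12, and neighbouring groups in the order of means overlapped for WT, KO and Q50 only. The change was 0.29 (SE 0.40, adjusted p 0.68) for Q50 against Q20 and -0.25 (SE 0.40, adjusted p 0.657) for Q111 against Q20. With only the Q20 and Q111 libraries in the fit, Notch1 was called for Q111 against Q20. Against WT the Q111 change was -1.16 (SE 0.40, adjusted p 0.0821). The gene shares its locus with 2 transcripts on the opposite strand, 0610009E02Rik and Gm13568, and since the use of strand in counting is not given in the sources used here, their reads cannot be told apart.

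Notch2 (chromosome 3, 98013527 to 98150361, plus strand) is a second receptor of neural progenitors. In NPC it was 237 and 115 CPM in WT, 244 and 110 CPM in KO, 97.0 and 92.2 CPM in Q20, 111 and 114 CPM in Q50, 117 and 101 CPM in Q92, and 65.7 and 63.6 CPM in Q111. As with Notch1, Q111 was the lowest group and did not overlap any other. The change against Q20 was -0.54 (SE 0.39, adjusted p 0.323) and against WT -1.34 (SE 0.39, adjusted p 0.0525), neither of which was called. With only the Q20 and Q111 libraries in the fit the first had an adjusted p of 0.00708.

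Notch3 (chromosome 17, 32120820 to 32166852, minus strand) is a receptor that is also strong in vascular mural cells. Its NPC levels were 190 and 90.8 CPM in WT, 109 and 68.1 CPM in KO, 144 and 143 CPM in Q20, 187 and 159 CPM in Q50, 84.8 and 89.4 CPM in Q92, and 58.0 and 60.1 CPM in Q111. Q50 was above Q20, and Q92 and Q111 were below it, with no overlap between any of these 4 lines. The change of Notch3 for Q111 against Q20 was -1.26 (SE 0.33, adjusted p 0.024) and for Q92 against Q20 -0.71 (SE 0.33, adjusted p 0.143). Summed smooth muscle markers (5 genes) ran from 1.54 to 36.1 CPM in NPC, lowest in Q111 and highest in Q20, and their part in the Notch3 result was not tested. Gm17276 overlaps Notch3 on the opposite strand, so the strand limit of Notch1 applies here too, and likewise to Dll1 (A930024N18Rik) and Hes5 (Gm20421).

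Among the ligands, Dll1 (chromosome 17, 15367354 to 15376872, minus strand), the main Delta-like ligand of neurogenic progenitors, was 325 and 93.7 CPM in WT and 173 and 79.0 CPM in KO. Its levels were 146 and 150 CPM in Q20, 104 and 93.6 CPM in Q50, 102 and 110 CPM in Q92, and 46.4 and 43.8 CPM in Q111. Q111 was below every other NPC library. Dll1 fell in Q111 against Q20 by 1.69 (SE 0.53, adjusted p 0.0451), and edgeR on the recovered reads did not call it. The changes of Dll1 in Q50 (-0.58, SE 0.53, adjusted p 0.513) and Q92 (-0.48, SE 0.53, adjusted p 0.529) were not called.

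Dll3 (chromosome 7, 28293553 to 28302238, minus strand), the inhibitory ligand, was highest in Q20, with 87.4 and 79.7 CPM. It was 54.7 and 23.8 CPM in WT, 42.0 and 22.2 CPM in KO, 28.5 and 15.2 CPM in Q50, 10.2 and 10.5 CPM in Q92, and 9.31 and 6.78 CPM in Q111. The group means of the 4 knock-in lines fell in the order of their repeat lengths, with no overlap between neighbouring lines. Against Q20, Dll3 fell by 1.95 in Q50 (SE 0.45, adjusted p 0.0188), by 2.90 in Q92 (SE 0.45, adjusted p 0.00235) and by 3.24 in Q111 (SE 0.45, adjusted p 0.00144). These 3 comparisons share the Q20 libraries. Dll3 was above WT in Q20 by 1.18 (SE 0.45, adjusted p 0.135), without overlap and not called.

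Against WT in place of Q20, the Dll3 change was -0.77 in Q50 (SE 0.45, adjusted p 0.411), -1.72 in Q92 (SE 0.45, adjusted p 0.0534) and -2.05 in Q111 (SE 0.45, adjusted p 0.0199). Q50 and WT overlapped, while Q92 and Q111 lay below both WT libraries. The Q50 call of Dll3 against Q20 was lost without Q20 replicate 1 (adjusted p 0.103), Q20 replicate 2 (adjusted p 0.0799) or Q50 replicate 2 (adjusted p 0.124). The Q92 and Q111 calls against Q20 held with each library of either group left out.

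Jag1 (chromosome 2, 137081456 to 137116644, minus strand), a Jagged ligand, was 154 and 85.5 CPM in WT, 156 and 102 CPM in KO, 95.2 and 89.5 CPM in Q20, 63.6 and 61.5 CPM in Q50, 76.9 and 70.6 CPM in Q92, and 46.5 and 44.2 CPM in Q111. The 4 knock-in lines did not overlap one another, and Q111 was the lowest. Jag1 fell in Q111 by 1.01 against Q20 (SE 0.28, adjusted p 0.0291) and by 1.32 against WT (SE 0.28, adjusted p 0.0171).

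Among the repressors, Hes5 (chromosome 4, 154960923 to 154962371, plus strand) is the target that most depends on Notch in neural progenitors. Its NPC levels were 74.5 and 7.89 CPM in WT, 21.6 and 4.42 CPM in KO, 64.1 and 37.3 CPM in Q20, 38.7 and 17.8 CPM in Q50, 1.77 and 0.922 CPM in Q92, and 4.47 and 10.1 CPM in Q111. Q92 lay below every other library, at 59 recovered reads in the lower of its libraries, and WT spanned a range that covered KO and Q50 in large part. Hes5 fell in Q92 against Q20 by 4.44 (SE 1.02, adjusted p 0.0147). In Q111 the change was -2.68 (SE 1.02, adjusted p 0.0802), which was not called. Against WT the Q92 change was -3.49 (SE 1.02, adjusted p 0.0733).

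Leaving out any of the 4 Q20 and Q92 libraries ended the Hes5 call, with adjusted p of 0.092 and 0.0513 without Q20 replicates 1 and 2, and of 0.0614 and 0.0791 without Q92 replicates 1 and 2. The change stayed between -4.82 and -4.05. Slc1a2, the glial glutamate transporter of the astrocyte list, had the NPC profile most like that of Hes5, with 515 and 440 CPM in Q20, 344 and 205 CPM in Q50, 13.3 and 14.6 CPM in Q92 and 35.4 and 37.4 CPM in Q111.

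Hey1 (chromosome 3, 8663359 to 8667256, minus strand), another direct target, fell into a high and a low set of lines. It was 72.2 and 31.6 CPM in WT, 64.9 and 23.8 CPM in KO, 44.2 and 51.6 CPM in Q20, 31.7 and 48.9 CPM in Q50, 11.3 and 12.3 CPM in Q92, and 13.4 and 12.3 CPM in Q111. Q92 and Q111 lay below every library of the other groups. Hey1 fell by 1.93 in Q92 (SE 0.49, adjusted p 0.023) and by 1.82 in Q111 (SE 0.49, adjusted p 0.0283) against Q20. Against WT it fell by 1.93 (SE 0.49, adjusted p 0.0492) and by 1.82 (SE 0.49, adjusted p 0.0409). The Q92 call of Hey1 against Q20 was lost without Q20 1 (adjusted p 0.0868), Q20 2 (0.107), Q92 1 (0.109) or Q92 2 (0.0865).

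Hes1 (chromosome 16, 30064384 to 30067796, plus strand), a repressor that also responds to signals other than Notch, did not follow Hes5 and Hey1. It was 21.6 and 46.4 CPM in WT, 47.6 and 34.7 CPM in KO, 23.1 and 24.2 CPM in Q20, 23.4 and 51.7 CPM in Q50, 14.2 and 15.3 CPM in Q92, and 31.3 and 15.5 CPM in Q111. Only Q92 lay below all other libraries, narrowly, and the other groups overlapped their neighbours in the order of means. Its changes against Q20 ran from -0.64 (SE 0.48, adjusted p 0.35) in Q92 to 0.54 (SE 0.48, adjusted p 0.499) in Q50.

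The libraries labelled KO, which still held Htt reads as given above, were compared with WT. In NPC 0 of the 9 genes were called by limma (0 at an unadjusted p under 0.05, and 0 with edgeR), where 1.42% of all genes were called (0.545% lower, 0.878% higher). Changes ran from -1.23 (SE 1.02) for Hes5 to 0.35 (SE 0.48) for Hes1, with a median of -0.27 against 0.03 over all genes. All 9 groups overlapped, whereas 29.7% of all genes had groups that did not. Replicate differences correlated between WT and KO (0.467), the highest of the 15 pairs of groups in NPC. Within each replicate number Notch1, Notch3, Dll1, Dll3, Hes5 and Hey1 were lower in KO and Jag1 was higher, while Notch2 and Hes1 differed in direction. With a replicate block shared by all genotypes 0 of the 9 genes were called, where that fit called 145 of all genes. Without WT replicate 2 the changes of Notch3 and Dll1 were -1.13 and -1.47. Without WT replicate 1 those of Dll1 and Hes5 turned to 0.32 and 0.31. These fits set both KO libraries against a single WT library and so break the pairs.

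Q20 against WT in NPC compares the shortest knock-in with the unmodified gene. None of the 9 genes was called (1 at an unadjusted p under 0.05, 0 with edgeR), against 14.5% of all genes (4.57% lower, 9.97% higher). Groups did not overlap for 3 genes, with Dll3 higher and Notch1 and Notch2 lower in Q20, against 48.6% of all genes. The Notch1 change was -0.90 (SE 0.40, adjusted p 0.195) and passed without WT replicate 2 (-1.52, adjusted p 0.0211), and the Dll3 change passed without WT replicate 1 (1.77, adjusted p 0.0308).

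Set against Q20, the longer repeats gave 1 lower gene in Q50 (Dll3), where 10.7% of all genes were called lower and 18.8% in either direction. In Q92, 3 of 9 genes were called, all lower (Dll3, Hes5 and Hey1), against 15.9% of all genes called lower and 25.8% called in all. In Q111, 5 of 9 were called, all lower (Dll3, Notch3, Hey1, Jag1 and Dll1), against 16.1% lower and 28.3% in all. Groups did not overlap for 6 of the 9 genes in Q50 and for all 9 in Q92, against 70.1% and 77.2% of all genes. The median change of the 9 genes was -0.27 in Q50, -0.64 in Q92 and -1.26 in Q111, while the median of all genes lay between -0.002 and 0.06. All 9 genes were lower in Q111 than in Q20 by point estimate, 8 of them without overlap of the groups, the exception being Hes1. Since 78.2% of all genes did not overlap between these lines, the absence of overlap does not set the 9 genes apart.

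Beside these counts the summed astrocyte markers were, as given above, 2302 and 2031 CPM in Q20 and at most 350 CPM in Q92 and Q111, and the oligodendrocyte lineage sum was lowest in Q92. Single genes of these 2 lists departed from the sums, as given above for Aldh1l1 and Cspg4. Summed neural progenitor markers were 3972 and 4168 CPM in Q20, 6493 and 6686 CPM in Q92 and 5423 and 6180 CPM in Q111. Of that list Nes, Vim and Olig2 were likewise higher in Q92 and Q111 than in Q20. Slc1a3, Msi1 and Sox1 were instead lower in both. Slc1a3 was 1399 and 1446 CPM in Q20, 778 and 808 CPM in Q92 and 962 and 986 CPM in Q111. Pax6 overlapped Q20 in Q92, and Fabp7 overlapped it in Q111. With WT as the reference 0 of 9 genes were called in Q50, against 6.62% of all genes (2.08% lower). In Q92 1 was called (Hey1), against 8.66% (5.25% lower), and in Q111 5 were called, all lower, against 16.6% (7.9% lower). The 5 genes called in Q111 against WT were the same 5 as against Q20. With any of the 4 Q20 and Q111 libraries left out, Dll3 alone was called for Q111 against Q20, and the other 4 genes had adjusted p from 0.0946 to 0.159, with changes from -1.93 to -0.97.

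**Figure D3:**
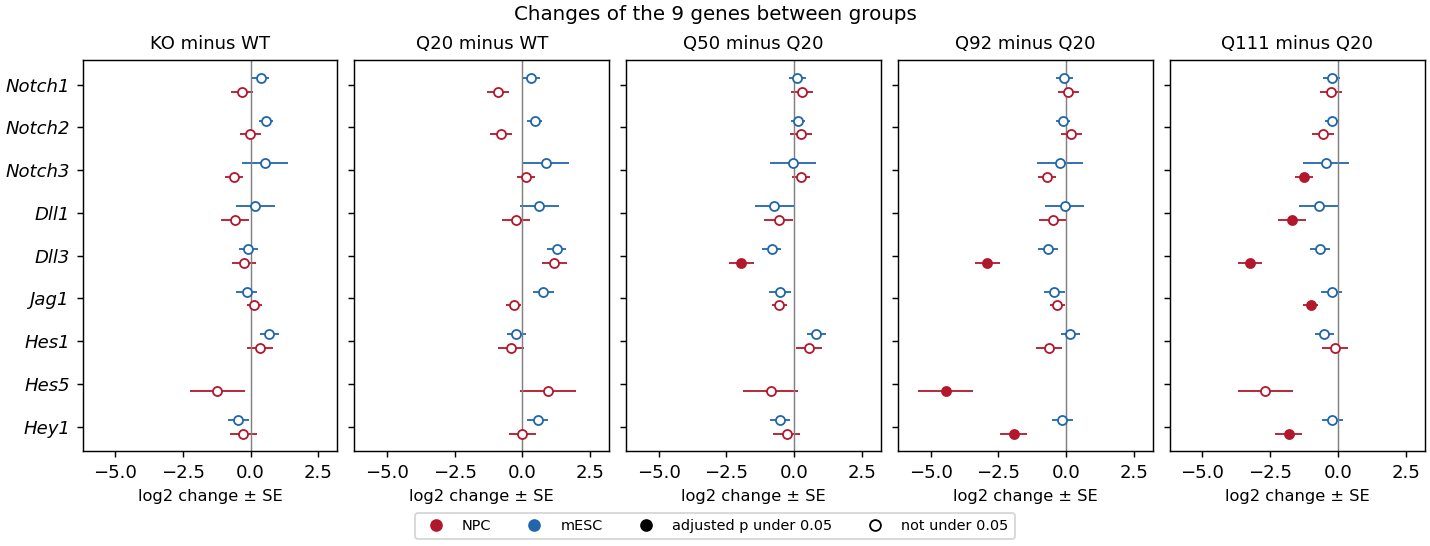
Log2 change (horizontal axis, ± SE) of each gene (vertical axis) in the 5 comparisons, in NPC (red) and mESC (blue); filled points have an adjusted p under 0.05. Filled points appear for NPC only, for 1 gene in Q50, 3 in Q92 and 5 in Q111, and all lie left of 0; Hes5 was not tested in mESC.

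The CAG length trend was the slope over the 8 knock-in libraries of NPC, expressed as the log2 change over 91 repeats. Dll3 fell by 3.09 (SE 0.41, adjusted p 0.00247), Hey1 by 2.14 (SE 0.31, adjusted p 0.00357), Notch3 by 1.36 (SE 0.27, adjusted p 0.0105), Dll1 by 1.32 (SE 0.32, adjusted p 0.0241) and Hes5 by 3.68 (SE 0.92, adjusted p 0.0257). Of these genes, Dll3 alone had line means that fell at each step in length. Notch3 was highest in Q50, Dll1 was slightly lower in Q50 than in Q92, and Hes5 and Hey1 were lowest in Q92. Jag1 narrowly missed the threshold (-0.73, SE 0.23, adjusted p 0.0549), and Notch1 (-0.25), Notch2 (-0.41) and Hes1 (-0.53) were not called. The median slope of the 9 genes was -1.32, against 0.04 over all genes.

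A slope over 4 lines rests on 4 points. With 1 mean value per line no gene was called, and 0 of all 13206 genes were. Without the Q20 line Hey1 and Notch3 alone were called, and without the Q111 line Dll3, Hes5 and Hey1. Dll1 lost its call without Q20 replicate 1 (adjusted p 0.0797), Q20 replicate 2 (adjusted p 0.0792), Q111 replicate 1 (adjusted p 0.0753) or Q111 replicate 2 (adjusted p 0.0738). Hes5 lost it without Q20 replicate 1 (adjusted p 0.102), Q20 replicate 2 (adjusted p 0.0683) or Q111 replicate 1 (adjusted p 0.0522), and Jag1 gained it without Q92 replicate 1 (-0.84, adjusted p 0.0334). Jag1 was also called with the third length taken as 89 repeats (-0.76, adjusted p 0.0468), which changed no other call among the 9 genes, with quantile normalization (adjusted p 0.0329) or median-of-ratios scaling (adjusted p 0.0382), and without the Q50 line (adjusted p 0.0398) or the Q92 line (adjusted p 0.00999). Notch1 was called with quantile normalization (-0.57, adjusted p 0.043).

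**Figure D4:**
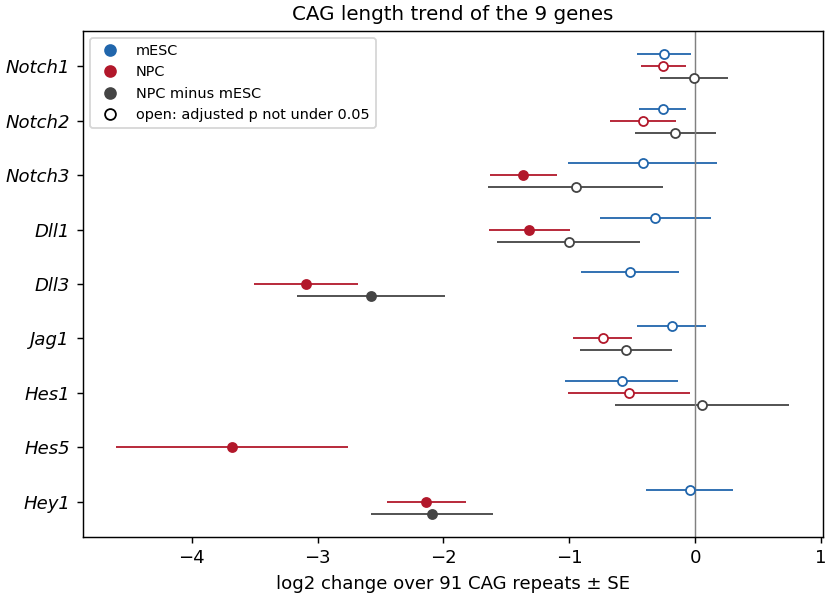
Log2 change over 91 CAG repeats (horizontal axis, ± SE) for each gene (vertical axis) in mESC (blue), in NPC (red), and as the difference NPC minus mESC (grey); filled points have an adjusted p under 0.05. In NPC 5 genes fell, and the difference between cell types was called for Dll3 and Hey1.

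In mESC the ratio of the highest to the lowest group mean was 3.39 for Dll3, 2.83 for Hes1, 2.79 for Hey1 and 1.99 for Notch3. Notch1 was 37.1 to 71.9 CPM over the 12 libraries (median 45.2), Notch2 42.0 to 89.7 CPM (median 57.4) and Notch3 18.7 to 99.5 CPM (median 45.7). Notch3 was higher in replicate 1 than in replicate 2 in all 6 genotypes, by up to 3.70-fold in KO. Jag1 was 14.8 to 45.2 CPM (median 33.7), Hes1 6.57 to 31.9 CPM (median 15.3), Dll1 2.14 to 14.4 CPM (median 7.36) and Hey1 1.19 to 4.26 CPM (median 3.14). Hes5 ran from 0 to 1.10 CPM, with 0 to 84 reads, reached 1 CPM in 1 library and was therefore left out of the tests by the filter.

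Dll3 was the 1 gene of the 9 with mESC values in every knock-in library above those of WT and KO. It was 2.08 and 2.16 CPM in WT, 1.76 and 2.12 CPM in KO, 7.28 and 5.85 CPM in Q20, 4.18 and 2.44 CPM in Q50, 4.02 and 3.48 CPM in Q92, and 5.67 and 2.42 CPM in Q111. Both Q20 libraries lay above all others, and the Q50 and Q111 libraries of replicate 2 lay only slightly above WT. For Q20 against WT the Dll3 change was 1.27 (SE 0.36, adjusted p 0.182). Replicate numbers paired the libraries in mESC, and with the replicate number as a block the adjusted p was 0.0331, so that 1 of the 8 genes was called, where that fit called 10.6% of all genes. As in NPC, Dll3 was highest in Q20. Markers of other cells also differed between the mESC genotypes. Summed fibroblast markers were 47.7 to 71.0 CPM in the knock-in libraries and 12.4 to 18.0 CPM in WT and KO. Of that list Thy1 overlapped (4.37 to 12.3 CPM against 3.66 to 11.3 CPM), as did Pdgfrb and Col3a1. Smooth muscle sums were 78.5 to 298 CPM in the knock-in libraries against 33.3 to 50.2 CPM in WT and KO. Des of that list overlapped, with 10.4 to 51.7 CPM against 24.5 to 44.5 CPM. The neural progenitor sum (8 genes) was 232 to 554 CPM against 144 to 210 CPM. Of that list Nes alone separated these libraries (41.5 to 158 CPM against 8.42 to 26.0 CPM, highest in both Q20 libraries). The other genes of the list overlapped, with Sox1 at 21.9 CPM in KO 1 and at 1.90 and 1.58 CPM in Q20. The part of these markers in the Dll3 values was not tested.

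In mESC 0 of the 8 tested genes were called in any of the 6 comparisons, where the background in the same fit was 0.0144% of 13916 genes for KO against WT, 0.323% for Q20 against WT, 0.00719% for Q50 and for Q92 against Q20, and 0% for Q111 against Q20 and for the trend. At an unadjusted p under 0.05 there were 0, 1, 2, 0, 0 and 0 of the 8 genes in that order. edgeR called none of the 8. With the replicate block the 6 comparisons called 16, 1475, 137, 64, 8 and 0 of all genes, and Dll3 for Q20 against WT alone among the 8. Set against WT, 0 of 8 were also called for Q50, Q92 and Q111, where 0.0144%, 0.0719% and 0.316% of all genes were. Groups did not overlap for 7 of the 8 genes for Q20 against WT (6 higher in Q20 and Hes1 lower), for 4 for Q50 and for 2 for Q92 against Q20, against 39.2%, 32.7% and 30.3% of all genes. For Q111 against Q20 the changes of all 8 were below 0, from -0.70 (SE 0.72) for Dll1 to -0.20 (SE 0.38) for Hey1, and groups did not overlap for 7 of them, against 22.7% of all genes. For KO against WT, Hes1 (0.68, SE 0.35) and Notch2 (0.57, SE 0.27) did not overlap between groups, both higher in the libraries labelled KO, against 25% of all genes.

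Whether a change differed between cell types was tested as NPC minus mESC on 12321 genes tested in both. For KO against WT 0 of the 8 genes were called (0 at an unadjusted p under 0.05), against 0.0406% of all genes. For Q20 against WT 0 were called, where 4.27% of all genes were, and 3 of 8 had an unadjusted p under 0.05, as had 15% of all genes. For Q50 against Q20 again 0 were called, where 4.59% of all genes were, and 0 had an unadjusted p under 0.05, against 16% of all genes. Dll3 differed for Q92 against Q20 by -2.23 (SE 0.59, adjusted p 0.0366), 1 of 8 genes where 5.96% of all genes were called. It differed for Q111 against Q20 by -2.58 (SE 0.59, adjusted p 0.0196), 1 of 8 against 4.97%. For the trend, Dll3 (-2.57, SE 0.59, adjusted p 0.0211) and Hey1 (-2.09, SE 0.49, adjusted p 0.023) differed, 2 of 8 against 4.86%. For Notch3 (-0.95, SE 0.70, adjusted p 0.48) and Dll1 (-1.002, SE 0.57, adjusted p 0.341) a difference between cell types was not shown, although both slopes were called in NPC. Without NPC Q20 replicate 2, neither Dll3 (adjusted p 0.0698) nor Hey1 (adjusted p 0.0579) differed in trend, nor did either without mESC Q111 replicate 1 (adjusted p 0.0556 and 0.05002). Dll3 was also lost without NPC Q20 replicate 1 (adjusted p 0.0795), and Hey1 without mESC Q20 replicate 2 (adjusted p 0.0508). The Dll3 difference for Q92 was lost with any of the 8 libraries left out (adjusted p 0.064 to 0.124), and that for Q111 with 5 of them, mESC Q20 2 and Q111 1 and NPC Q20 1, Q20 2 and Q111 2 (adjusted p 0.0618 to 0.0975).

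The rest of the pathway was read from a list of 41 further genes, of which 41 were in the mESC table, 40 in the NPC table, and 37 and 38 passed the filter. In mESC none of the 37 was called in any comparison. With the replicate block, which called 10.6% of all genes for Q20 against WT, 5 of them passed, where Dner, Dtx4, Jag2 and Lfng were higher and Poglut1 was lower in Q20 (names taken after the values were seen). In NPC, Tle4, a Groucho-type corepressor, was the 1 gene of 38 called for KO against WT, with 81.1 and 66.6 CPM in KO and 152 and 134 CPM in WT (-0.95, SE 0.14, adjusted p 0.0244). Without WT replicate 1 (adjusted p 0.0677) or KO replicate 2 (adjusted p 0.0744) Tle4 was not called. For Q20 against WT, 2 of 38 genes rose and 3 fell, where 9.97% of all genes rose and 4.57% fell (14.5% in all). Jag2, a second Jagged ligand, rose from 0.771 and 0.994 CPM to 9.29 and 8.93 CPM (2.43, SE 0.15, adjusted p 2.08e-05). The other, Heyl, a further target, had 1.84 and 2.09 CPM in Q20 and under 1 CPM in all other libraries; it passed the filter through Q20 alone and so had to differ. The proteases fell together, Adam10 by 0.65 (adjusted p 0.0308) and Adam17 by 0.77 (adjusted p 0.0218), as did Ncstn, a gamma-secretase subunit, by 0.70 (adjusted p 0.0123). Leaving out a library ended the Q20 calls of Adam10 (without Q20 1, Q20 2 or WT 2, adjusted p 0.0772 to 0.172), Adam17 (without Q20 2 or WT 1, adjusted p 0.148 and 0.0507) and Ncstn (without Q20 1 or Q20 2, adjusted p 0.0825 and 0.0669).

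Against Q20, 3 list genes rose and 8 fell in Q50, 5 rose and 8 fell in Q92, and 2 rose and 9 fell in Q111, where 8.05%, 9.88% and 12.2% of all genes rose and 10.7%, 15.9% and 16.1% fell. Each falling count includes Heyl, whose place in the test was set by its Q20 values. Adam10, which cleaves the engaged receptor, was 107 and 96.6 CPM in Q20 and rose in each, to 211 and 188 CPM in Q50, 203 and 183 CPM in Q92 and 178 and 242 CPM in Q111; WT had 155 and 164 CPM. Jag2 fell in each, to 0.948 and 0.823 CPM in Q50, 0.578 and 0.406 CPM in Q92 and 2.06 and 1.45 CPM in Q111. These 2 genes thus had a Q20 value away from both WT and the longer lines. Against WT Jag2 changed by 0.004 in Q50 and rose by 0.54 in Q111 (adjusted p 0.0455). Adam10 was not called against WT in Q50 (adjusted p 0.325), Q92 (adjusted p 0.315) or Q111 (0.38, adjusted p 0.139). The glycosyltransferases that tune ligand choice split. Lfng rose in Q50 by 1.44 (adjusted p 0.00142), from 56.4 and 52.6 CPM to 138 and 163 CPM, and in Q92 by 0.84 (adjusted p 0.0166), to 97.7 and 98.5 CPM. The Q92 rise of Lfng was not called with any of the 4 libraries left out (adjusted p 0.0693 to 0.0882) or against WT (0.26, adjusted p 0.433). Rfng rose in Q111 by 0.72 (adjusted p 0.0399). Mfng fell in Q111 by 2.87 (adjusted p 0.000509), from 19.2 and 12.3 CPM to 1.12 and 1.38 CPM. Against WT, Lfng in Q50 (0.87, adjusted p 0.0381) and Mfng in Q111 (adjusted p 0.00717) were called in the same directions, as was Rfng in Q111.

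Other named genes of the list were regulators of the receptor and of the nuclear complex. Numbl, which is related to the Notch inhibitor Numb, fell in Q50 by 1.43 (adjusted p 0.00472), and Ncstn rose there by 0.51 (adjusted p 0.04). Neither was called in Q50 against WT (adjusted p 0.084 for Numbl and 0.525 for Ncstn). Dtx1, a Deltex ubiquitin ligase and known Notch target, fell in Q92 by 1.99 (adjusted p 0.00375), from 16.1 and 20.6 CPM to 4.61 and 3.16 CPM, and against WT by 1.91 (adjusted p 0.014). Fbxw7, a ubiquitin ligase subunit that turns over the intracellular domain, rose in Q92 by 0.82 (adjusted p 0.012), and was not called there against WT (adjusted p 0.195). Maml3, a Mastermind coactivator, fell in Q111 by 1.93 (adjusted p 0.000861), from 23.0 and 21.6 CPM to 5.12 and 5.06 CPM, and was also called lower there against WT (adjusted p 0.0152). Leaving out any of the 4 libraries ended the calls of Ncstn in Q50 (adjusted p 0.0868 to 0.21) and Rfng in Q111 (adjusted p 0.0871 to 0.192). The Q92 calls were lost for Fbxw7 without Q20 1 or Q92 2 (adjusted p 0.0798 and 0.0802).

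For the trend, 0 of the 38 list genes rose and 8 fell, Heyl among them, where 12% of all genes rose and 10.1% fell. Mfng fell by 2.65 (SE 0.31, adjusted p 0.00146), Dtx1 by 2.72 (SE 0.34, adjusted p 0.00201) and Dll4, a Delta-like ligand known from endothelium, by 1.47 (SE 0.28, adjusted p 0.00973). Dll4 lay between 0.611 and 3.50 CPM in NPC, and its trend was not called with quantile normalization. The median slope of the 38 genes was -0.21, against 0.04 over all genes. None of these trends was called with 1 mean value per line.

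**Figure D5:**
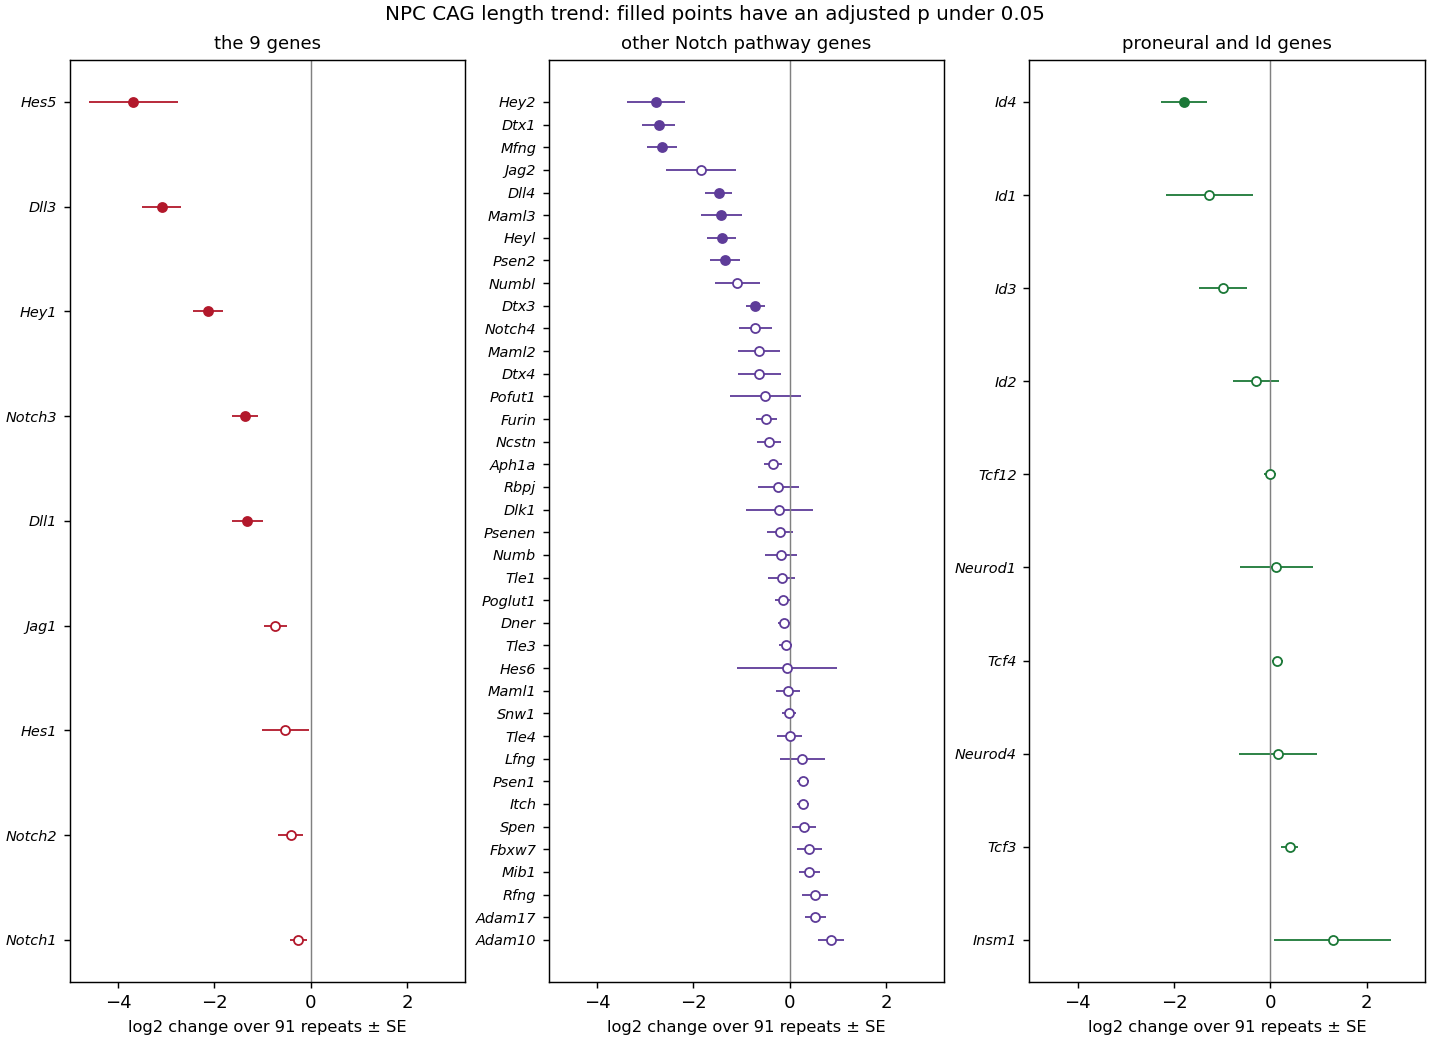
Log2 change over 91 CAG repeats in NPC (horizontal axis, ± SE) for the 9 genes, the other Notch pathway genes and the proneural and Id genes (vertical axes, 1 gene a row); filled points have an adjusted p under 0.05. Of the 9 genes 5 are filled and fall, of the 38 others 8 are filled and fall, and of the 10 proneural and Id genes Id4 alone is filled.

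The proneural and Id list held 14 genes, 11 of them in the NPC table, and 10 passed the filter in NPC and 10 in mESC. Neurod4, a factor of early neurons, was 4.00 and 4.58 CPM in Q20 against 0.298 and 0.0859 CPM in WT, a rise of 2.15 (adjusted p 4.39e-05), and fell against Q20 in Q50 by 2.34 (adjusted p 2.81e-05), in Q92 by 0.52 (adjusted p 0.043) and in Q111 by 0.51 (adjusted p 0.0417). With WT as the reference the Neurod4 change was instead 1.64 in both Q92 and Q111. Insm1, a factor of newborn neurons, rose in Q92 to 12.7 and 14.0 CPM (2.57, adjusted p 0.0342), from 0 and 4.81 CPM in Q20. It was not called by edgeR (adjusted p 0.48), nor in Q92 against WT. Id4, an inhibitor of proneural factors, fell with repeat length by 1.79 (adjusted p 0.0332). Calls were lost without any 1 of the libraries but Q50 2 for Id4 (adjusted p 0.0504 to 0.137), without any of the 4 for Neurod4 in Q111 (0.0958 to 0.172), and without Q20 1, Q20 2 or Q92 2 for Neurod4 in Q92 (0.0967 to 0.23). The Insm1 call was lost without Q20 1, Q92 1 or Q92 2 (adjusted p 0.124 to 0.14). In mESC none of the 10 tested genes was called.

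The genes with the most similar NPC profiles were taken by the smallest root-mean-square difference in centred log2(CPM + 1) over the 12 libraries, among 13206 genes. Notch1 and Notch2 were each other's closest gene (0.167), followed for both by Eef2k (0.168 and 0.177). Acadsb was among the genes closest to Notch3 (0.205). Dll1 was closest to Zmym6 (0.178) and Xpa (0.205), and Jag1 to Bmp2k (0.187) and Rnf122 (0.192). Dll3 was closest to Coq8a (0.285), and Hey1 to Atp1a4 (0.292) and Slc9a9 (0.296). Hes1 was closest to Ufc1 (0.332) and Abcb9 (0.354), and Hes5 to Slc1a2 (0.507) and Fam69c (0.545). Among the 9 genes themselves, the closest to Hes5 was Dll3 (1.03), to Hey1 Notch3 (0.597) and to Hes1 Notch1 (0.688). None of the 3 repressors was thus closest to another of them by this measure, which also depends on the size of the changes. For Hes1 the difference exceeded its own root-mean-square deviation from its mean (0.604). All values are descriptions over libraries that share genotype and depth differences.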

How the data were processed

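Total RNA of 12 mESC and 12 NPC libraries was sequenced as paired-end reads, per the labels' protocols. The submitters' processing notes name CASAVA 1.8, STAR and GRCm38.p6; the counting tool, its use of strand, the annotation and the gene filter are not given in the sources used here. The deposited values are a scaled signal that the authors named CPM, in 1 table per cell type. Column totals ran from 900342 to 1080734, and 100% of values were whole multiples of a step per library (tolerance 0.01), which gave back the reads. Intervals are not given; errors are SEs of the model, and with 2 libraries a group p-values measure the spread between these libraries.

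Tests covered genes that reached a CPM of 1 in 2 or more of a cell type's libraries (13916 in mESC, 13206 in NPC); values entered as log2(CPM + 1) into limma 3.58.1 (variance trend, 6 group means, two-sided, Benjamini-Hochberg) in R 4.3.3, and tested on simulated data. All 9 genes passed the filter in NPC and 8 in mESC. The trend used repeat lengths of 20, 50, 92 and 111. Because the values were scaled, edgeR 4.0.16 on the recovered reads, like median-of-ratios scaling and WT as the reference, was an alternative chosen after seeing the data. Comparisons that share Q20 or WT libraries are not independent of one another, and no correlation between them was computed.

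Replicate numbers paired libraries in mESC, where deviations of same-numbered libraries correlated over 0.1 in 15 of 15 pairs of groups (0.25 to 0.547). In NPC this held for 3 of 15 pairs of groups, most for WT with KO (0.467). Gene lengths, positions and overlaps came from GENCODE M21 on GRCm38, and promoters from RefSeq. From the wider list, each comparison names up to 3 rising and 3 falling called genes with the smallest p and no overlap (any called gene for the trend); from the proneural list, every called gene. Some listed genes and some of the closest genes by profile are not reported here, and the list counts leave them out. The 9 genes and the lists were chosen with earlier results of these data known.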

Additional observations from a re-analysis of the deposited data

Results flagged for a closer look

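Several changes differed between NPC and mESC by the test of the difference itself (limma, NPC minus mESC), among the 9 genes and the wider list. For Dll3 the difference was -2.23 for Q92 against Q20, -2.58 for Q111 against Q20 and -2.57 for the trend over 91 repeats, and for Hey1 -2.09 for the trend. Both genes fell in NPC and were not called in mESC. There Dll3 was 1.76 to 7.28 CPM and Hey1 1.19 to 4.26 CPM, low levels that limit the size of a fall on the log2(CPM + 1) scale.

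Lfng differed in 4 comparisons, by -1.78 for Q20 against WT and by 2.39, 1.58 and 1.49 for Q50, Q92 and Q111 against Q20; in mESC it was 6.73 and 10.5 CPM in Q20 and 2.33 to 5.12 CPM in the other libraries. Mfng differed by -1.89 for Q92, -2.36 for Q111 and -2.29 for the trend. Jag2 differed by -2.08 for Q50 and -2.25 for Q92. Numbl differed by -1.68 for Q50 and -1.79 for Q111, and Pofut1, which adds the sugar that the glycosyltransferases extend, by 1.89 for Q50. For the trend, Dtx1 differed by -2.93 and Hey2 by -2.58. In mESC Hey2 was 0.563 to 1.65 CPM, too low for a fall as large as its NPC trend (-2.77) on the log2(CPM + 1) scale. The comparisons with Q20 share its libraries, and some stem cell and neuronal markers (Pou5f1, Nanog, Stmn2 and Dcx) were high in the NPC Q20 libraries; their part in these differences was not tested.

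Many of these differences were lost with 1 of the 8 libraries left out (16 for the trend). That held for 7 of 8 libraries for Pofut1 in Q50 (adjusted p up to 0.14) and Lfng in Q92 (up to 0.104), for 6 for Lfng in Q111 (up to 0.146) and Jag2 in Q50 (up to 0.176) and Q92 (up to 0.097), for 5 for Mfng in Q92 (up to 0.132), and for 3 for Lfng in Q20 against WT (up to 0.0693). It also held for 2 for Numbl in Q50 (up to 0.0587), for 1 for Mfng in Q111 (up to 0.0554), and for 11 of 16 for the Hey2 trend (up to 0.12) and 2 of 16 for the Dtx1 trend (up to 0.0571). The differences of Lfng in Q50, Numbl in Q111 and Mfng in the trend were called with every library left out in turn.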

How the results depend on the processing

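Depth limited the lowest values, Hes5 in mESC (0 to 84 reads), Heyl and Neurod4 above all. Of 1475 recomputed values, 193 results for counts of the 9 genes kept their value within 1.5 times and 45 did not. The others were values of single genes and counts called in the wider and proneural lists. Of these, 977 kept direction and call, or a count within 1.5 times, and 14 list counts did not. Among single genes 214 values lost the call, 16 gained it and 16 changed sign. Which of the 9 genes were called in NPC for Q50 and Q92 was the same under quantile normalization, median-of-ratios scaling and edgeR.

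With the replicate block, 1 gene (Dll3) was called for Q20 against WT in mESC and 1 (Dll3) in NPC. In NPC the correlations of replicate differences ran from -0.0495 to 0.467, highest between WT and KO and 0.0872 between WT and Q20. The block also added Hes5 in NPC for Q111, making 6 genes, and changed no other call among the 9. Among other named genes it ended the NPC calls of Ncstn in Q50 and Neurod4 in Q92, which left 0 proneural genes lower there; in mESC it called 4 genes of the wider list higher and 1 lower for Q20 against WT. With the fit restricted to the 4 libraries compared, 3, 7 and 8 of the 9 genes were called in NPC for Q50, Q92 and Q111 against Q20. With WT as the reference 0 and 1 were called for Q50 and Q92. For the NPC trend 0 were called with 1 mean value per line, 2 without the Q20 line and 3 without the Q111 line.

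Leaving out each library gave 0 to 2 called genes for KO against WT, 0 to 1 for Q20 against WT, 0 to 1 for Q50, 1 for Q92, 1 for Q111 and 3 to 6 for the trend in NPC. For the difference between cell types it gave 0 to 1 for Q20 against WT, 0 for Q92, 0 to 1 for Q111 and 0 to 2 for the trend.

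Signs changed for these values. Without the Q20 line the mESC trend was 0.28 for Dll3 and 0.54 for Hey1, and without the Q111 line the NPC trend was 0.073 for Notch1 and 0.23 for Notch2. The mESC trend of Hey1 was 0.042 with quantile normalization and ran from -0.20 to 0.18 with a library left out. With a library left out, KO against WT in NPC ran from -1.47 to 0.32 for Dll1 and from -2.77 to 0.31 for Hes5, and Q20 against WT from -0.60 to 2.49 for Hes5. With WT as the reference, Dll3 in mESC Q111 was 0.62, and in NPC Ncstn in Q50 was -0.19, Jag2 0.0040 in Q50 and 0.54 in Q111, and Neurod4 1.64 in Q92 and 1.64 in Q111. Neurod4 in Q92 was 0.096 with quantile normalization. Beyond settings that leave out samples, the cause was not tested.

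Counts of called genes among all genes ranged widely too. In mESC they were 2 for KO against WT (0 to 16), 45 for Q20 against WT (0 to 1475), 1 for Q50 (0 to 137), 1 for Q92 (0 to 64), 0 for Q111 (0 to 44) and 0 for the trend. In NPC they were 188 for KO against WT (0 to 1577), 1920 for Q20 against WT (476 to 2846), 2478 for Q50 (874 to 3927), 3407 for Q92 (1144 to 6160), 3743 for Q111 (1569 to 6712) and 2909 for the trend (0 to 3742). The differences between cell types were 5 (3 to 80), 526 (302 to 1321), 566 (305 to 1397), 734 (352 to 1801), 612 (259 to 2040) and 599 (276 to 1005) in the same order. The highest mESC counts but that for Q111, and those of the last 5 differences, came with the replicate block.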
